A study of Mus musculus with 8 samples.

Results

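Trbc1 and Trbc2 are the paired constant genes of the mouse T cell receptor beta chain, and they are 2 of the 2000 genes in the table of values made from 53528 cells of Hepa1-6 tumours. They were followed in 13037 T cells, chosen by a mean deposited value of Cd3d and Cd3g (CD3 subunits of the receptor complex) of at least 0.8, and in 369 natural killer (NK) cells. NK cells were chosen by a mean value of Ncr1, Klrb1c, Klre1 and Klra8 (NK receptors) of at least 0.8 with the CD3 mean below 0.8. Hepa1-6 is a mouse hepatoma line. The labels list 8 entries in 4 groups, with tumours of genotype WT or Soat1 knockdown in animals injected intraperitoneally with PBS or PD1 antibody, and each group has a cDNA and an oligo entry. The titles call the edited tumours KO where the genotype field says knockdown, and the labels give no age, strain or number of animals. The cell names divide the cells into 6 sets, which nothing ties to the 4 groups, so the genotypes and treatments were not compared, and the sets are given as samples of unknown group. The names are numbers with a set ending rather than barcodes, and 12741 of the 22421 names without the ending occur in more than 1 set, so shared barcodes could not be counted. No p-value is given, since cells of one sample are not replicates.

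A T cell receptor of the alpha-beta kind pairs an alpha chain, whose constant part comes from Trac, with a beta chain whose constant part comes from Trbc1 or Trbc2. During thymic development a variable segment and a diversity segment are joined to a joining segment of the first or of the second cluster, and the finished transcript is spliced to the constant gene that follows that cluster. Joining to the second cluster can delete Trbc1 from the chromosome, while joining to the first leaves Trbc2 in place. Each cell usually makes 1 functional beta chain, although its other allele may be partly rearranged and transcribed. NK cells carry no T cell receptor. The study's title concerns CD8+ T cell infiltration of Soat1-edited tumours, and the question addressed here is how the constant genes are distributed over the T cells.

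In the GENCODE M21 annotation of GRCm38, both genes lie on the forward strand of chromosome 6. Trbc1 (ENSMUSG00000076490.6) spans bases 41538218 to 41539881 and follows Trbd1 and the 7 Trbj1 segments. Trbc2 (ENSMUSG00000076498.2) spans bases 41546730 to 41548352, after Trbd2 and the 7 Trbj2 segments, and 6848 bases separate the genes. These coordinates belong to the annotation, since the build behind the deposited values is not certain.

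**Figure D1:**
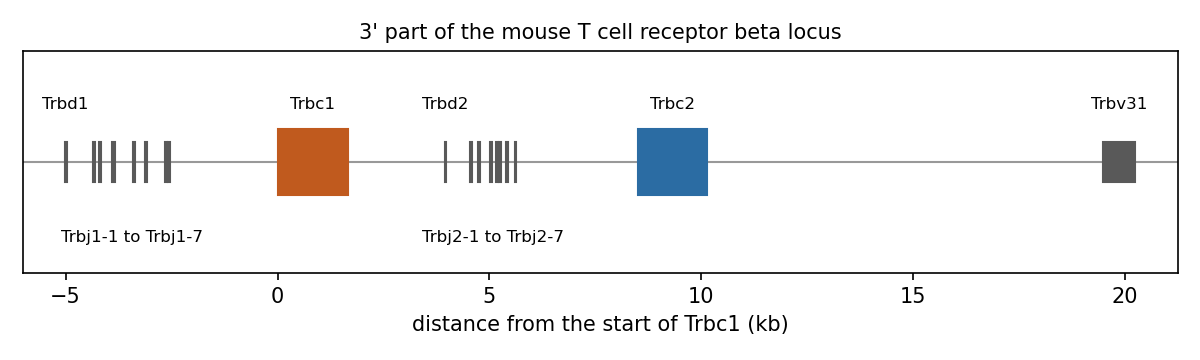
Position of the beta constant genes and their neighbours, in kb from the start of Trbc1, drawn to scale from the annotation with very short segments widened to be visible. Trbc1 (orange) follows the Trbj1 cluster, Trbc2 (blue) follows the Trbj2 cluster, and boxes span whole genes.

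The 2 genes are near copies of each other, and the sequences below show where a read can tell them apart. The coding parts of their 4 exons have 518 bases each without the stop codon, and 23 of these differ. Exon 1, with 375 bases, holds 1 difference, C260A (Trbc1 base, position from the first base of exon 1, Trbc2 base). It is shown in capitals with the 30 bases on each side.
Trbc1 exon 1: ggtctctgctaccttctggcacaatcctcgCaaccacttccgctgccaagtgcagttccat
Trbc2 exon 1: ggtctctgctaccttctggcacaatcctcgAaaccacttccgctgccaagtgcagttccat
The other 22 differences lie in exons 2, 3 and 4, which carry 3, 15 and 4 of them. The coding bases of these exons, ending with the stop codon, are given with the differing bases in capitals.
Trbc1 exons 2 to 4: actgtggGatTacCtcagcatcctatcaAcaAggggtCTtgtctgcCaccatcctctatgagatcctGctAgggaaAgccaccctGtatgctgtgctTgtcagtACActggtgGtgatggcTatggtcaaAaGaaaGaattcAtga
Trbc2 exons 2 to 4: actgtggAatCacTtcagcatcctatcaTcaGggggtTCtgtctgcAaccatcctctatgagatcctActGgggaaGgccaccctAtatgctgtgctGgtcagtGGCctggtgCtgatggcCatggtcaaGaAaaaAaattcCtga
Behind the stop codon Trbc1 has 216 bases and Trbc2 has 171 bases of untranslated sequence. Of the stretches of 100 bases, the length of the sequenced cDNA read per the labels' protocols, 183 of 638 in the Trbc1 transcript (28.7%) and 183 of 593 in the Trbc2 transcript (30.9%) occur unchanged in the other transcript. All of them lie within the first 382 bases. The libraries were made from 3′ ends, and how reads that match both genes were counted is not given in the sources used here, so a part of either gene's count could belong to the other, and the size of that part was not tested.

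Counts of unique molecular identifiers (UMIs, 1 per captured RNA molecule) could be recovered for set 1 only. There, 1302 T cells remained after 22 called doublets were left out, with a median of 4733 UMIs per cell. They held 4441 Trbc1 UMIs and 17363 Trbc2 UMIs, which is 529.9 (95% Poisson interval 514.4 to 545.7) and 2072 (2041 to 2103) counts per 1000000 UMIs of these cells (CPM). Trbc1 thus made up 20.4% of the pair's UMIs (exact binomial interval 19.8% to 20.9%). All intervals here cover counting error only. Trac, the alpha constant gene, had 292.7 CPM, Cd3d 677.5 and Cd3g 700.9 in the same cells. These are UMIs and not levels per length, and capture at the 3′ end can differ between genes, Trbc1 and Trbc2 included, so the share of Trbc1 is a share of counted UMIs.

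Outside T and NK cells the levels were low. Hepatoma cells of set 1 (5941 cells chosen by liver genes such as Afp and Alb) had 3.52 Trbc1 and 12.5 Trbc2 CPM, 150-fold (137 to 165) and 166-fold (158 to 174) lower than T cells. At a median of 18592 UMIs, 7.93% of hepatoma cells had a Trbc1 UMI and 23.9% a Trbc2 UMI. Trbc1 was 22.0% of their UMIs of the pair. Macrophages (767 cells) had 12.5 and 19.0 CPM. The 122 neutrophils held 1 Trbc1 and 8 Trbc2 UMIs, the 89 fibroblasts 3 and 7, the 13 B cells 1 and 1, and the 19 dendritic cells none, which allows up to 32.7 CPM for either gene (upper end of the Poisson interval). In the other direction, RNA of hepatoma cells was present in T cells, where 85.7% had a UMI of Afp (alpha-fetoprotein).

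The values on either side of the threshold on Cd3d and Cd3g were as follows. The 25 cells just inside it (mean value 0.8 to 0.9) held 22 Trbc1 and 54 Trbc2 UMIs, or 314.8 and 772.7 CPM. The 24 cells just outside (0.7 to 0.8) held 5 and 49, or 46.4 and 454.6 CPM. The shares of cells with a UMI were close, with Trbc1 in 5 of 25 and 4 of 24 cells and Trbc2 in 12 and 10, and 13 cells on each side had neither.

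Most T cells of set 1 had UMIs of both genes. Trbc1 was found in 63.4% of T cells, Trbc2 in 93.1% and both in 60.1% (57.3% to 62.7%), where the product of the separate shares is 59.0%. Trbc2 alone was found in 430 cells, Trbc1 alone in 43 and neither in 47. These shares depended on depth: over 4 equal depth classes of the T cells, with median totals of 1721, 3474, 6293 and 12285 UMIs, both genes were found in 39.0%, 60.3%, 70.2% and 70.9%. With each cell thinned to 1000 UMIs, Trbc1 was found in 35.6%, Trbc2 in 75.3% and both in 25.3%, where the product is 26.9%. Both shares stand close to their products, above at full depth and below at 1000 UMIs. With Trbc2 in 93.1% of cells at full depth, the share with both could not lie far from its product there. In the deepest of the 4 classes every cell had Trbc2, so there the share with both equals the share with Trbc1.

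The share of Trbc1 per cell was examined in the 761 T cells with at least 10 UMIs of the pair. It was below 10% in 360 cells (47.3%, interval 43.7% to 50.9%) and from 10% to below 50% in 251 cells (33.0%). It was 50% or more in 150 cells (19.7%, 16.9% to 22.7%). That last share depended on the minimum, with 24.1% (21.5% to 26.8%) at 5 UMIs and 13.8% (10.6% to 17.6%) at 20. The distribution fell from its peak near 0 to a low between 30% and 50% and formed a broad second rise between 50% and 80%. There was no rise at the Trbc1 end: 8 cells (1.05%) had a share of 90% or more and 2 cells held Trbc1 only, against 199 cells (26.1%) with Trbc2 only. Among the 405 cells with at least 20 UMIs no cell reached 90%, which allows a share of up to 0.907% (upper end of the exact binomial interval), and 70 cells (17.3%) held Trbc2 only. The minor gene reached 10% of the pair's UMIs in 51.9% of the 761 cells (48.3% to 55.5%).

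**Figure D2:**
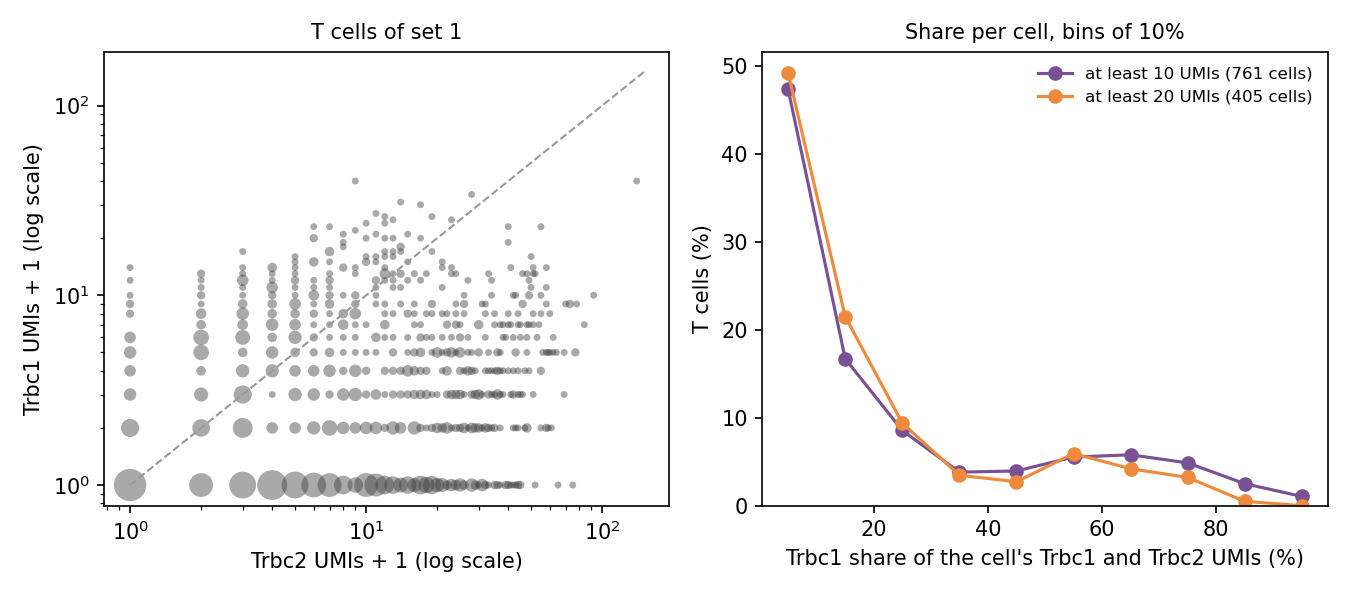
Trbc1 and Trbc2 per T cell of set 1. Left, UMIs plus 1 of each gene on log axes, with point area growing with the number of cells and a dashed line of equal counts; right, share of cells (%) by the Trbc1 share of the pair's UMIs, in bins of 10% plotted at their middle, for cells with at least 10 or at least 20 UMIs. The highest point is the bin near 0, and the bin from 90% holds 8 of 761 and 0 of 405 cells.

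Cells at the 2 ends of this distribution are described next. The groups were set by the share itself after it had been seen, and by unequal limits: one allows Trbc2 up to 50% of the pair, the other keeps Trbc1 under 10%. How much of the other gene each group held is therefore fixed in part by these limits, and nothing is read from the difference between the groups. The 150 cells with at least 50% Trbc1, called Trbc1-led, had 1703 Trbc1 and 863.6 Trbc2 CPM, with medians of 11 and 5 UMIs per cell, and 98.7% of them had a Trbc2 UMI. The rate of the hepatoma cells was taken as a stand-in for free RNA and scaled to each cell's total UMIs. At that rate 8.70% of the Trbc1-led cells would have a Trbc2 UMI. Their mean was 6.39 Trbc2 UMIs against 0.0922 at that rate. Without scaling, at a median of 18592 UMIs, 23.9% of hepatoma cells had a Trbc2 UMI and 7.93% a Trbc1 UMI. Whether free RNA follows a cell's total was not tested, and if it does not, the scaled rate is too low. The 360 cells with less than 10% Trbc1, called Trbc2-led, had 2683 Trbc2 and 89.8 Trbc1 CPM. A Trbc1 UMI was present in 44.7% of the Trbc2-led cells, against 3.21% at the hepatoma rate. At 1000 UMIs per cell, Trbc2 was found in 58.0% (49.7% to 66.0%) of Trbc1-led and Trbc1 in 8.61% (5.93% to 12.0%) of Trbc2-led cells. The pair's summed level was 2567 CPM (2473 to 2663) in Trbc1-led cells, 2772 CPM (2716 to 2829) in Trbc2-led cells and 3164 CPM (3091 to 3238) in the 251 cells between them.

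Other parts of the receptor differed by less than 2-fold between the led groups. Trac had 333.6 CPM (300.4 to 369.3) in Trbc1-led and 282.8 CPM (265.1 to 301.4) in Trbc2-led cells, Cd3d 733.8 and 647.7, and Cd3g 792.4 and 673.9. With another grouping, available in all 6 sets, T cells whose Trbc1 value was above Trbc2 were set beside those whose Trbc2 value was higher by more than 2. The mean Trac value was then lower in the former in 6 of 6 sets (difference -0.02 in set 1), while Cd3d and Cd3g were higher in set 1 (0.02 and 0.16) and lower in sets 2 to 6. CD8 cells made up 91.3% and 88.9%. Cells with a cell-cycle program, defined below, made up 30.0% (45 of 150) and 42.8% (154 of 360). A list of genes of the T cell receptor complex and its signalling has 28 genes in the table, of which 20 had at least 100 UMIs in the led groups together. None of the 20 was 2-fold higher or lower in Trbc1-led cells, where 1.86% of the 591 measured genes were 2-fold higher and 0.846% were 2-fold lower. The list's median ratio was 1.17, against 1.01 over all measured genes.

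The 47 T cells with neither gene were shallow, with a median of 1782 UMIs. They held 54 Cd3d UMIs but 13 Trac UMIs, or 138.1 (73.5 to 236.2) Trac CPM. Of the gamma-delta receptor genes, Trdc, the delta constant gene, had 0 UMIs. The gamma constant genes Tcrg-C1 and Tcrg-C2 had 3 and 7 UMIs, or 31.9 CPM (6.57 to 93.2) and 74.4 CPM (29.9 to 153.2), against 3.34 and 136.6 CPM in all T cells. The 3 Tcrg-C1 UMIs came from 2 cells. A Cd8a UMI was present in 10 of these 47 cells. Over all T cells of set 1, Trdc had 6 UMIs, Tcrg-C1 28 and Tcrg-C4 54. Tcrg-C2 had 1145, at 152.5 CPM in CD8 cells and 0 UMIs in the CD4 and Foxp3-positive cells.

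T cells were divided by values of at least 0.5 of Cd8a, Cd4 (co-receptors of killer and helper T cells) and Foxp3 (the factor that defines regulatory T cells). In set 1 the 989 CD8 cells had 549.3 Trbc1 and 2187 Trbc2 CPM. The 64 CD4 Foxp3-negative cells had 324.5 (268.2 to 389.2) and 1273 (1159 to 1395). The 38 Foxp3-positive cells without Cd8a had 314.3 (247.6 to 393.4) and 732.0 (628.1 to 848.1). Among these 3 classes the pair's sum was thus highest in CD8 cells. It was 1.71-fold (1.58 to 1.86) above CD4 Foxp3-negative and 2.61-fold (2.31 to 2.97) above Foxp3-positive cells. The 24 cells with both Cd8a and Cd4 had a higher sum, 3006 CPM (2780 to 3244) against 2736 CPM (2697 to 2775) in CD8 cells. Trbc1 was 20.1% of the pair in CD8, 20.3% (17.1% to 23.9%) in CD4 Foxp3-negative and 30.0% (24.5% to 36.1%) in Foxp3-positive cells. Between the CD4 and the Foxp3-positive class Trbc2 differed 1.74-fold (1.46 to 2.08), while the Trbc1 ratio of 1.03 had an interval of 0.767 to 1.40. The remaining cells were 23 with Cd8a and Foxp3 (16.3% Trbc1), 24 with Cd8a and Cd4 (22.5%) and 164 with none of the 3 genes (24.7%). The last of these classes had a median of 1874 UMIs, so a missed Cd8a or Cd4 cannot be told apart from its absence there.

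Trac did not follow the beta genes over these classes, with 289.4 CPM in CD8, 304.9 in CD4 Foxp3-negative and 413.6 in Foxp3-positive cells. Of the 21 measured genes of the receptor list, 3 were 2-fold higher in CD8 than in Foxp3-positive cells (Tcrg-C2, Sh2d2a, an adaptor that binds Lck, and Tox, a transcription factor of persistently stimulated T cells), while 15.9% of the 696 measured genes were. The list members 2-fold lower were Cd5 and Cd2 (surface receptors that tune T cell activation), where 11.8% of all genes were lower. Between CD8 and CD4 Foxp3-negative cells, Tcrg-C2 and Sh2d2a were 2-fold higher (background 13.9% of 706 genes), and Egr2 and Cd247 were 2-fold lower (8.07%). Cd247, which encodes the CD3 zeta chain, had 143.3 CPM in CD8 and 363.7 in CD4 Foxp3-negative cells. These list shares stand near the background, so the receptor list did not stand out as a whole.

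Cycling T cells had less Trbc1. They were taken as T cells with a mean value of at least 0.8 over Mki67, Top2a, Birc5, Cdk1, Ccnb1, Ccna2, Cenpf, Ube2c and Stmn1 (genes of DNA replication and mitosis). In set 1 the 395 cycling cells had 399.0 Trbc1 CPM and the 907 others 647.6, a ratio of 0.616 (0.579 to 0.655). Trbc2 was 2006 and 2131, a ratio of 0.942 (0.914 to 0.970). Trbc1 accordingly made up 16.6% (15.8% to 17.3%) of the pair in cycling cells and 23.3% (22.6% to 24.1%) in the others. Within CD8 cells alone the shares were 16.4% and 23.0%. Cycling cells were deeper, with a median of 8236 UMIs against 3582. At 1000 UMIs per cell, Trbc1 was at 410.1 CPM in cycling and 786.1 in other cells, and Trbc2 at 2033 and 2179. Thinning weights cells equally but leaves each cell's expected Trbc1 share as it was, so it cannot remove a link with depth. Over the depth classes of all T cells, from shallow to deep, Trbc1 was 26.6%, 27.4%, 20.6% and 17.2% of the pair. Cycling and depth therefore cannot be told apart here. Other receptor genes were also lower in cycling cells, with ratios of 0.715 (0.679 to 0.754) for Cd3g, 0.752 (0.670 to 0.843) for Cd6, a surface co-receptor, and 0.758 (0.719 to 0.799) for Cd3d, while Trac had 0.995 (0.918 to 1.08). The median ratio of the 21 measured receptor genes was 0.853, against 0.906 over all 742 measured genes. None of the 21 passed 2-fold, as Trbc1 did not, where 16.4% of all genes were 2-fold higher and 5.66% were 2-fold lower.

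NK cells showed the opposite balance. The 32 NK cells of set 1 held 47 Trbc1 and 23 Trbc2 UMIs, or 405.5 (297.9 to 539.2) and 198.4 (125.8 to 297.8) CPM, so that Trbc1 made up 67.1% (54.9% to 77.9%) of the pair. Against T cells, Trbc1 was 0.765-fold (0.561 to 1.02) and Trbc2 0.0958-fold (0.0607 to 0.144). Against hepatoma cells, Trbc1 was 115-fold (83.4 to 155) and Trbc2 15.9-fold (10.1 to 23.9) higher. The UMIs were spread over cells: 18 of the 32 had Trbc1 with at most 10 UMIs in a cell, 11 had Trbc2 with at most 6, 8 had both and 11 had neither, at a median of 2851 UMIs per cell. The NK markers of the gate were high by its definition, with 327.9 CPM of Ncr1, 871.4 of Klrb1c, 819.6 of Klra8 and 923.2 of Klre1. Klre1 also had 358.7 CPM in T cells. Tyrobp and Eomes, NK markers outside the gate, had 1294 and 379.6 CPM, against 14.2 and 41.6 in T cells. T cell genes were near 0, with 2 UMIs of Cd3d, 0 of Cd3g and 2 of Trac, although the gate itself limits Cd3d and Cd3g. Without the cells that had a Cd3d or Cd3g UMI, 30 NK cells held 45 and 21 UMIs, or 68.2% Trbc1. A looser NK gate of 0.5 gave 45.7% over 68 cells and a stricter one of 1.2 gave 77.2% over 25. Of 21 measured receptor genes, 11 were at least 2-fold lower in NK than in T cells, where 34.0% of 751 genes were. The 11 include Trac and Themis, but also Cd3d and Cd3g, whose direction the gates fixed in advance. None of the 21 was 2-fold higher (10.9%). Cd247 stayed at 146.7 CPM in NK cells, against 157.1 in T cells.

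**Figure D3:**
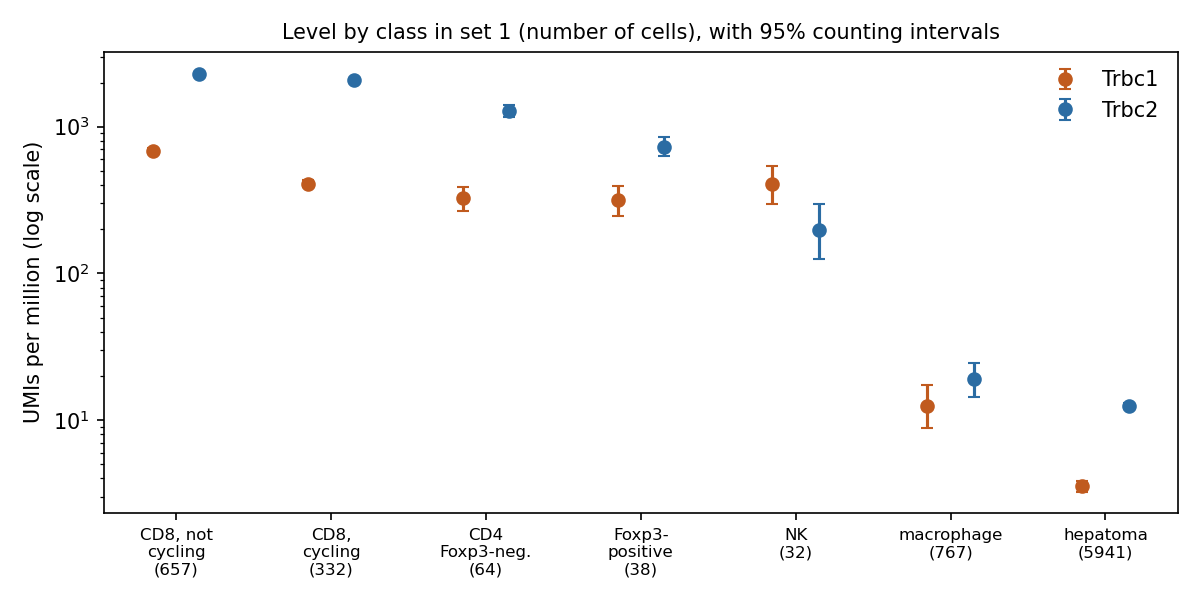
Trbc1 and Trbc2 in CPM (log scale) in classes of set 1, with the number of cells under each class and 95% Poisson intervals of the summed counts. Trbc2 lies above Trbc1 in each class shown except NK cells, at 198.4 against 405.5. Hepatoma cells, taken as a stand-in for free RNA, lie lowest in both genes.

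The same balance appeared in each of the 6 sets on the deposited scale, on which values are natural logs and, in sets 2 to 6, were also altered by a step that is not recorded. The mean Trbc1 value of T cells was 1.35, 1.34, 1.39, 1.32, 1.47 and 1.27 in sets 1 to 6, and the mean Trbc2 value was 2.70, 2.65, 2.65, 2.46, 2.63 and 2.50. The Trbc1 value exceeded the Trbc2 value in 20.6%, 21.2%, 20.1%, 23.1%, 25.6% and 20.5% of T cells. Set 5 was highest in both Trbc1 measures, and the other 5 sets lay between 20.1% and 23.1%. In set 1, whose values were not altered, 96 of the 1324 T cells had equal values of both genes, those without a UMI of either included, while the other sets had none.

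**Figure D4:**
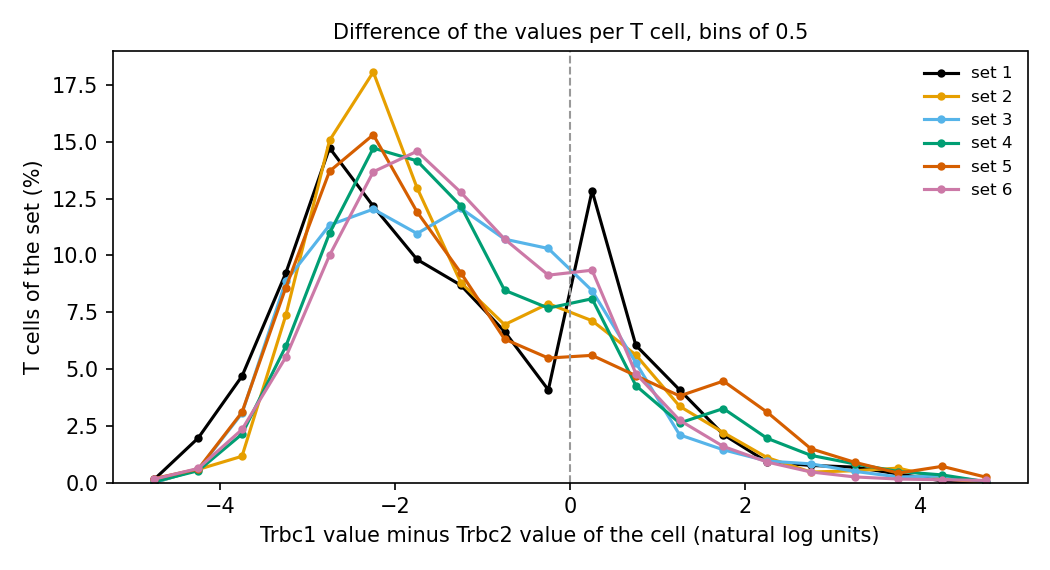
Trbc1 value minus Trbc2 value (natural log units) of each T cell, as the share of the set's T cells in bins of 0.5, for the 6 sets. Each set has its peak below -1 and a tail above 0 that holds 20.1% to 25.6% of its cells; the black point just above 0 includes the 96 cells of set 1 with equal values.

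Cycling cells had the lower Trbc1 balance in 6 of 6 sets. The Trbc1 value was the higher one in 13.7%, 12.5%, 9.16%, 13.3%, 18.1% and 5.34% of cycling T cells of sets 1 to 6, and in 23.6%, 23.3%, 24.2%, 25.6%, 27.7% and 25.7% of the others. The mean Trbc1 value was lower in cycling cells in each set, by a median of -0.56 (range -0.70 to -0.32). The mean Trbc2 value was higher in each set, by a median of 0.17 (0.11 to 0.30), where the summed counts of set 1 gave a ratio below 1. In set 1, Trbc2 was detected in 97.5% of the deeper cycling cells and in 91.2% of the others, and its part in that mean was not tested.

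CD8 cells had higher mean values than CD4 Foxp3-negative cells in 6 of 6 sets, by 0.08 to 0.53 for Trbc1 and by 0.17 to 0.55 for Trbc2. Against Foxp3-positive cells the differences were 0.19 to 0.57 and 0.70 to 1.00, also in 6 of 6 sets. Between the CD4 and Foxp3-positive classes Trbc2 was higher in the CD4 class in 6 of 6 sets, and Trbc1 in 3 of 6. The Foxp3-positive class had 35 to 82 cells per set. Within CD8 cells, those with a value of at least 0.5 of Gzmc, a granzyme of strongly activated killer cells, had a lower mean Trbc1 value in 6 of 6 sets (difference -0.45 to -0.21), with Trbc2 lower in 3 of 6. In set 1, Trbc1 was 13.3% (11.9% to 14.7%) of the pair in the 82 CD8 cells with Gzmc and 21.0% in the 907 without. Their median totals were 10693 and 5127 UMIs. At 1000 UMIs per cell the shares were 15.9% (11.0% to 21.9%) and 24.3% (22.7% to 25.9%), but thinning leaves each cell's expected share as it was. Over all T cells the Trbc1 share was 26.6% in the shallowest and 17.2% in the deepest depth class. Gzmc and depth therefore cannot be told apart here. For Havcr2, the inhibitory receptor TIM-3, the mean Trbc1 value was lower in 6 of 6 sets by at most 0.08. The Trbc1 share in set 1 was 19.2% with and 21.7% without Havcr2 in all UMIs, at median totals of 6659 and 3795 UMIs. At 1000 UMIs per cell, where cells weigh equally, it was 24.4% (22.3% to 26.6%) and 23.0% (20.9% to 25.3%), with overlapping intervals. For Xcl1 (a chemokine) and Il7r (the interleukin-7 receptor) the difference between the Trbc1 and Trbc2 values moved in no common direction over the sets.

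In NK cells the mean Trbc1 value exceeded the mean Trbc2 value in 6 of 6 sets. The Trbc1 means of sets 1 to 6 were 1.10, 0.83, 1.22, 1.02, 1.23 and 0.84, over 24 to 111 cells. The Trbc2 means were 0.57, 0.61, 0.75, 0.73, 0.49 and 0.65. In T cells the order was the reverse in each set. Cell by cell, the Trbc1 value was the higher one in 43.8%, 48.7%, 70.8%, 49.5%, 62.2% and 44.8% of NK cells of sets 1 to 6, below 50% in 4 of the 6. In set 1, NK cells without a UMI of either gene count among the rest. Hepatoma cells, low in both genes, had shares of 5.43%, 47.3%, 40.7%, 52.0%, 42.8% and 46.9% in sets 1 to 6. The NK share was above the hepatoma share in 4 of 6 sets and below it in sets 4 and 6. A share near 50% in the altered sets can therefore arise in cells low in both genes. Relative to T cells, the NK means were lower by 0.17 to 0.51 for Trbc1 and by 1.73 to 2.13 for Trbc2.

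**Figure D5:**
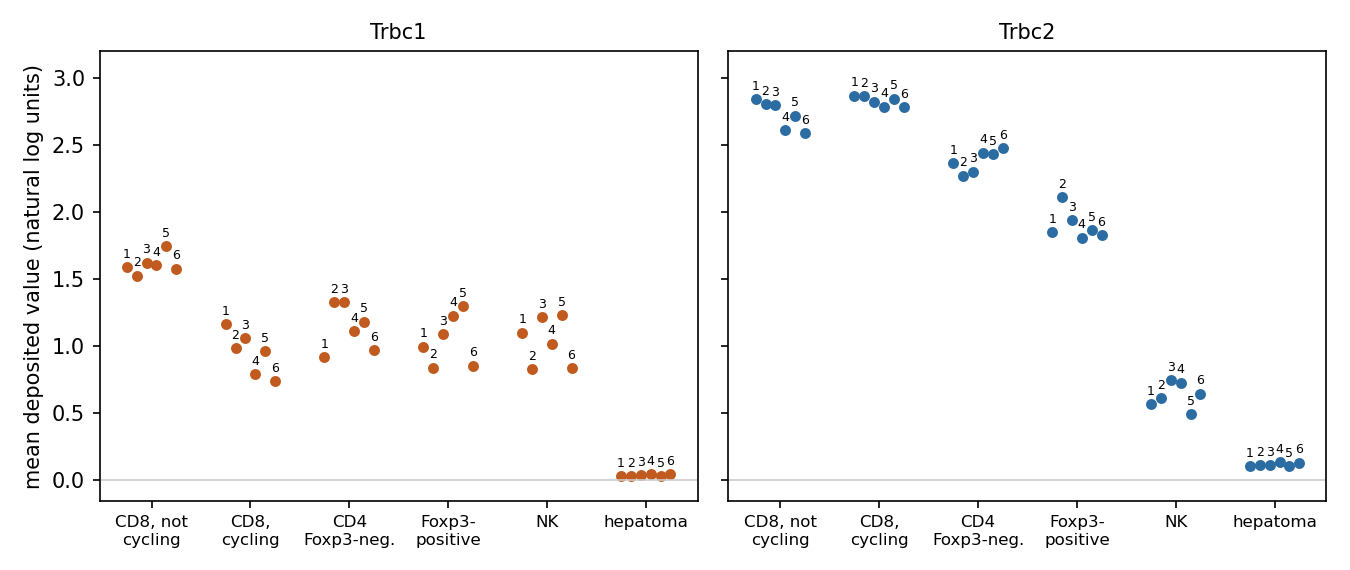
Mean deposited values (natural log units) of Trbc1 (left) and Trbc2 (right) by cell class, with 1 point per set and the set's number above it. Trbc1 is lower in cycling than in other CD8 cells in each set, and in NK cells Trbc1 lies at 0.83 to 1.23 and Trbc2 at 0.49 to 0.75.

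Likeness was taken over 12 cell classes of set 1, which share the set's libraries but no cells and include classes low in both genes. The genes whose log2 level (CPM plus 1) was most like that of Trbc1 were Sh2d2a (Pearson r 0.99) and Tox (0.98). Gimap7, Gimap1 and Gimap4 (0.97, 0.96 and 0.96), GTPases of lymphocytes, came next. For Trbc2 the most alike were Tox (0.98), Trbc1 (0.96) and Ccng1 (0.95). Lat (0.95), a scaffold of receptor signalling, and Cxcr6 (0.95), a chemokine receptor of tissue T cells, followed.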

How the data were processed

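Single cells of dissociated tumours were profiled by droplet 3′ RNA sequencing. Per the labels' protocols, the gene-by-cell counts came from PISA. Per the submitters' processing notes, STAR 2.7.2b was used and the builds GRCh38 and mm10 are named; gene symbols are mouse symbols. The authors deposited 1 table of 2000 genes and 53528 cells on a natural log scale. All 53528 columns belong to no known sample and were split into 6 sets by the ending of the cell name.

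In set 1 (9370 cells) each deposited value was the natural log of 1 plus UMIs per 10000, and whole UMIs were recovered for 100% of cells (tolerance 0.01). In sets 2 to 6 every cell had values below 0, so only values are given there. Doublets of set 1 were called with Scrublet (scanpy 1.11.5; 6% expected) and left out of its counts; none were removed elsewhere. Levels are counts per 1000000 UMIs (CPM), with exact Poisson or Clopper-Pearson intervals at the 95% level (scipy 1.17.1). Classes were set by thresholds on marker values, with no clustering; hepatoma cells, macrophages and the other non-T classes needed a mean marker value of 0.8.

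Named genes were the members, the 5 most alike, the receptor list, and, between T cells with Trbc1 alone and with Trbc2 alone, the 5 highest and 5 lowest ratios among genes with at least 100 UMIs. The Trbc1-led and Trbc2-led groups, and the same ranking between them, were added after seeing the data. The members and lists were chosen with earlier results of these data known. Functions were tested on simulated data. Alternatives covered gates, doublets, depth, minimum counts and averaging.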

Additional observations from a re-analysis of the deposited data

How the results depend on the processing

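Trbc2 stayed the more frequent gene in T cells under the alternatives tried, while in NK cells an NK gate of 0.5 put Trbc1 under 50%. In all, 53 alternative values moved by less than their counting interval while 30 moved by more. With cells thinned to 1000 UMIs, Trbc1 was 23.9% of the pair in T cells of set 1, 23.8% in CD8, 25.8% in CD4 Foxp3-negative and 26.5% in T cells not cycling; both genes were found in 25.3% of T cells; the pair's sum was 3.13-fold higher in CD8 than in Foxp3-positive cells and 0.824-fold in cycling against other cells. As a mean over cells, the Trbc1 share was 25.2% in T cells, 25.3% in CD8, 18.3% in cycling and 28.2% in other cells. T cell gates of 0.5 and 1.2 gave both genes in 57.2% and 62.8% of cells. With the minor gene at 5% or 20%, mixed cells were 66.0% or 33.0%. A cell-cycle gate of 0.5 gave a sum ratio of 0.823 and 24.6% Trbc1 in cells not cycling. An NK gate of 0.5 gave 581.6 Trbc2 CPM and 45.7% Trbc1. Among cells whose values differed by at least 0.5, Trbc1 was higher in 18.1%, 16.6%, 14.4%, 17.9%, 22.4% and 13.6% of T cells of sets 1 to 6. A gate of 0.5 gave 25.9% in set 4 and 22.8% in set 6, and a gate of 1.2 gave 18.4%, 20.6% and 17.6% in sets 3, 4 and 6. For these moves the cause was not tested. No paired analysis was possible because the cell names carry no group or replicate, so this holds for genotype and treatment; cell classes were compared within each set. The number of cells limited the NK and Foxp3-positive values of set 1.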

Other observations

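Between Trbc1-led and Trbc2-led T cells of set 1, the measured gene with the highest ratio was Gm12840, a long noncoding RNA gene. It had 90 UMIs in 47 of 150 Trbc1-led cells and 18 UMIs in 14 of 360 Trbc2-led cells, or 81.1 and 5.35 CPM, a ratio of 15.2 (9.07 to 26.7). No Trbc1-led cell had more than 8 of these UMIs. T cells whose Trbc1 value was above Trbc2 were also set beside those whose Trbc2 value was higher by more than 2. In sets 2 to 6 the mean Gm12840 value was higher in the former, by 0.09, 0.06, 0.02, 0.03 and 0.06 natural log units. The difference of 0.27 in set 1 is no separate observation, since the gene was picked there. In the cells with Trbc1 alone it had 8 UMIs in 7 of 43 cells, and in those with Trbc2 alone 38 UMIs in 19 of 430 cells.

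The next ratios were those of the granzymes Gzmg (4.65) and Gzmf (2.99), which rested largely on single cells. In the Trbc1-led group 1 cell held 111 of the 115 Gzmg UMIs. For Gzmf, 1 cell held 124 of the 205 UMIs, and whether it was the same cell was not examined. Ccr2, a chemokine receptor, had a ratio of 2.80 (2.20 to 3.57) with UMIs in 48 of 150 and 50 of 360 cells. Cd226, an activating receptor, had a ratio of 2.55 (2.19 to 2.97) with UMIs in 115 of 150 and 174 of 360 cells. The lowest ratios were those of Ighm (0.400), Nefh (0.416), Gm42047 (0.430), Ugt1a10 (0.471) and Gm156 (0.517).

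Between the 43 cells with Trbc1 alone and the 430 with Trbc2 alone, whose median totals were 1766 and 3993 UMIs, 11.8% of 491 measured genes were 2-fold higher and 24.2% were 2-fold lower. The highest ratios were those of Il10, Penk, Timp2, Isg15 and Plk3. Il10 and Penk rested on few cells, with 44 UMIs in 3 cells and 55 UMIs in 6 cells. Isg15, an interferon-induced gene, had 29 UMIs in 12 cells, and Timp2 and Plk3 had 19 and 16 UMIs in 12 and 11 cells. The lowest were Kifc1, Knl1, Knstrn, Sgo1 and Tacc3, genes of chromosome segregation, each with 0 UMIs in the 43 cells and 108 to 339 UMIs in the 430. Of these cells 3 of 43 and 138 of 430 were in the cycling class. Of the 20 measured receptor genes 3 were 2-fold higher with Trbc1 alone (Cd6, Cd5 and Cd2) and none was lower.

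The table holds the variable genes Trbv2 and Trbv3, which had 32 and 5 UMIs in the T cells of set 1. Trbv2 UMIs were found in 2 of 150 Trbc1-led and 10 of 360 Trbc2-led cells, too few to relate variable gene use to the constant gene.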
